A study of Homo sapiens with 9 samples.

Results

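The comparison described here sets 2 Dicer-substrate small interfering RNAs (DsiRNAs) against each other. Both were aimed at TBX3, in the human melanoma line 501mel, and are labelled 13.6 and 13.8. It takes the 3 libraries with DsiRNA 13.6 and the 3 with DsiRNA 13.8, which are 6 of the 9 libraries of the series, and all genes of the deposited count table. The other 3 libraries had the non-targeting control DsiRNA NC1 and serve here as a common reference. All 9 cultures got a mix of Lipofectamine and DsiRNA and were lysed 24 h later. The labels call the 3 libraries of a group biological replicates. As a model, each group is a transient knockdown in 1 established cell line, so that any difference between the reagents is measured in 1 genetic background and at 1 time.

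A DsiRNA is a double-stranded RNA that the enzyme Dicer trims before one strand is loaded into an Argonaute protein, which then cuts transcripts that pair with the whole strand. Transcripts that pair only with the short seed region near the 5′ end of the loaded strand can also be lowered, as they are by a microRNA. TBX3 is a T-box transcription factor that mostly acts as a repressor. In pigment cells, melanin is made in melanosomes by the enzymes TYR, TYRP1 and DCT under the transcription factors MITF and SOX10, and the receptor MC1R, through cyclic AMP, shifts the pigment from red-yellow pheomelanin toward brown-black eumelanin. Because both DsiRNAs were aimed at the same transcript, a direct comparison lists the genes at which the libraries of the 2 reagents differ.

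Total RNA was sequenced with a strand-preserving kit. The 6 knockdown libraries held between 41592157 and 52272147 counted reads, and the 9 libraries between 38105026 and 52272147. Levels are given as CPM, counts per 1000000 reads, scaled by the trimmed mean of M-values, and differences as log2 of the ratio of 13.6 to 13.8, so that a positive value means a higher level with 13.6. Of 25382 genes, 14731 had enough reads to be tested. A gene is called when its p-value, adjusted over those 14731 genes by the Benjamini-Hochberg method in edgeR's quasi-likelihood test, is below 0.05, and every adjusted p below comes from that test. Errors of differences are approximate standard errors (SE), with 3 libraries per group. Each is the size of the log2 difference divided by the square root of the F value of the same test. Of the melanocyte markers, S100B, a calcium-binding protein of neural crest cells, measured 24.2, 31.7 and 33.3 CPM in the control libraries, and PMEL, MLANA, TYR, TYRP1, DCT, MITF and SOX10 all passed the read filter and were between 366 and 8943 CPM there.

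TBX3 itself was lowered by both reagents and slightly further by 13.8. It measured 88.6, 83.8 and 84.0 CPM in the 3 control libraries, 46.4, 41.0 and 39.4 CPM with 13.6 and 36.1, 33.7 and 36.2 CPM with 13.8. All 6 knockdown libraries lay below the controls, and the 3 libraries with 13.8 lay below the 3 with 13.6. The level was 0.494 times that of the controls with 13.6 (log2 -1.02, edgeR adjusted p = 1.27e-07) and 0.414 times with 13.8 (log2 -1.27, edgeR adjusted p = 1.03e-08). The direct difference was 0.26 ± 0.07 (SE) on the log2 scale, or 1.20-fold, with an edgeR adjusted p of 0.00699. In the edgeR test against a 1.5-fold threshold instead of against 0, the difference was not called (edgeR adjusted p = 1).

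The sequences of the DsiRNAs were not at hand. What can be shown of the target is where its 3′ untranslated region (UTR) holds 2 short words that an earlier search of these data had picked out, AACTGTC and GCTCTGT, whose carriers among all genes are described further below. The longest annotated 3′ UTR of TBX3 (GENCODE 29, transcript ENST00000349155.6, chromosome 12, minus strand, GRCh38) is 1587 bases long and holds the first word once, at position 1019, and the second at positions 803 and 998. The nearer pair starts 21 bases apart. The 3 places are shown 5′ to 3′ on the transcript, with the word in capitals and 10 bases on each side.
TBX3 AACTGTC, chr12:114670806-114670832: atagaattgcAACTGTCaggttttgtg
TBX3 GCTCTGT, chr12:114671022-114671048: ttatatctaaGCTCTGTagcaggattc
TBX3 GCTCTGT, chr12:114670827-114670853: attgtacataGCTCTGTgtaaatagaa

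Beyond TBX3, the reagents left widely different transcriptomes. Of the 14731 genes tested, 8995 were called between 13.6 and 13.8 (61.1%), 4547 of them higher with 13.6 (30.9%) and 4448 higher with 13.8 (30.2%). Against the same 3 control libraries, 7357 genes were called with 13.6 (49.9%; 24.9% higher and 25.0% lower) and 8169 with 13.8 (55.5%; 27.5% higher and 27.9% lower). The 3 libraries of one reagent lay wholly beyond the 3 of the other for 10130 genes (68.8%). Most differences were small, with a median size of 0.578 on the log2 scale among called genes and 0.394 over all genes tested, and 4573 called genes (50.8%) differed by less than 1.5-fold. When the test itself was set against a 1.5-fold threshold, 2510 genes were called.

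The larger differences leaned toward 13.8. A called difference of at least 2-fold was found for 2063 genes (14.0%), of which 731 were higher with 13.6 (4.96%) and 1332 higher with 13.8 (9.04%). At 4-fold or more the counts were 80 and 324, and at 8-fold or more 14 and 83. This lean lay at low levels. Among 2143 genes with a mean under 1 CPM in the knockdown libraries, 140 were called at 2-fold or more higher with 13.6 and 511 higher with 13.8, and the median difference was -0.457. Among 2232 genes at 100 CPM or more the counts were 110 and 51, and the median was 0.109. Of 798 long non-coding RNAs tested, 89 were higher with 13.6 and 286 higher with 13.8 (median -0.365), beside 4330 and 3932 of 13030 protein-coding genes (median 0.007). The median level of the non-coding RNAs tested was 1.58 CPM and that of the protein-coding genes 30.2 CPM.

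**Figure D1:**
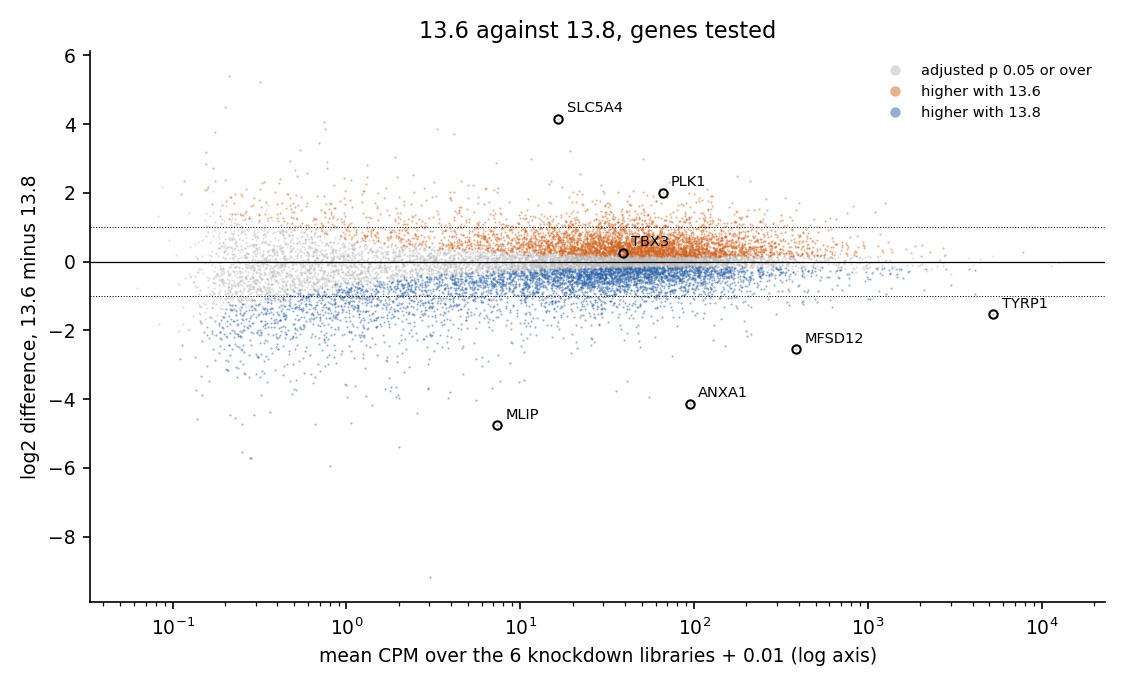
Log2 difference between the libraries with 13.6 and 13.8 (vertical axis) against the mean CPM over the 6 knockdown libraries (log axis, 0.01 added), 1 point per gene tested; orange points were called higher with 13.6, blue points higher with 13.8, grey points not called, and dotted lines mark 2-fold. At low levels more genes lie below the lower line than above the upper one, and TBX3 lies close to 0.

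The spread between libraries gives a scale for this. Over 10707 genes at 5 CPM or more, a library with 13.6 and one with 13.8 differed by a median of 0.316 to 0.362 on the log2 scale, over their 9 pairings. A control library and a library with 13.6 differed by 0.264 to 0.303, and a control library and one with 13.8 by 0.287 to 0.339. Libraries of the same group differed by 0.056 to 0.161. The lowest value between the 2 TBX3 reagents thus lay above the highest value between either group's replicates.

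The 12 genes with the largest difference in favour of 13.6, of named genes whose mean over the knockdown libraries was 5 CPM or more, were led by SLC5A4, a member of the sodium-glucose cotransporter family. It measured 27.2, 31.3 and 35.3 CPM with 13.6 and 2.24, 1.48 and 1.57 CPM with 13.8, a 17.8-fold difference (log2 4.15 ± 0.30 SE, edgeR adjusted p = 3.74e-07), and 4.65, 11.3 and 5.60 CPM in the controls. The controls lay between the reagents without touching either. HTN1, which encodes the salivary peptide histatin and has a close copy, HTN3, whose reads could be counted with it, measured 34.3, 38.01 and 32.2 CPM with 13.6, 3.41, 4.12 and 3.78 CPM with 13.8 and 9.29, 6.16 and 10.3 CPM in the controls (13.6 against 13.8, log2 3.21 ± 0.16 SE). CTLA4, best known as an inhibitory receptor of T cells, measured 90.2, 93.2 and 88.6 CPM with 13.6, 11.0, 11.2 and 12.1 CPM with 13.8 and 36.6, 45.2 and 43.2 CPM in the controls (log2 2.99 ± 0.09 SE). For these 3 genes the level was above the controls with one reagent and below them with the other.

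For other genes of this group only one reagent stood away from the controls. ACSL5, which couples long-chain fatty acids to coenzyme A, was at 19.5, 20.5 and 21.6 CPM with 13.6, 2.99, 2.45 and 2.42 CPM with 13.8 and 2.75, 2.76 and 2.49 CPM in the controls. PTBP2, a splicing repressor of developing neurons, was at 118, 122 and 118 CPM with 13.6, 23.9, 23.4 and 25.2 CPM with 13.8 and 24.8, 23.7 and 24.6 CPM in the controls. Both were called against control with 13.6 (log2 2.95 and 2.29) and not with 13.8 (log2 -0.03 and -0.01). The reverse held for APOLD1, an endothelial immediate-early gene, which was at 306, 264 and 324 CPM with 13.6, 64.0, 46.5 and 48.4 CPM with 13.8 and 319, 338 and 291 CPM in the controls. It was called against control with 13.8 (log2 -2.58) and not with 13.6 (log2 -0.08). PIGA, which starts the assembly of the GPI anchor, fell from 28.9, 29.8 and 30.3 CPM in the controls to 6.88, 6.49 and 6.20 CPM with 13.8 and rose to 38.2, 36.3 and 38.6 CPM with 13.6 (13.6 against 13.8, log2 2.53 ± 0.07 SE). The remaining 5 were NUAK1, a kinase related to AMPK (log2 2.87), ACSL1, a relative of ACSL5 (2.36), PRPS2, which makes the sugar phosphate of nucleotides (2.35), OIP5, which helps to load centromeric histone (2.26), and VMAC, a vimentin-associated protein (2.24).

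On the other side stood MLIP, which encodes a lamin-interacting protein of muscle. It measured 0.655, 0.323 and 0.594 CPM with 13.6, 13.1, 15.1 and 14.2 CPM with 13.8 and 3.87, 3.20 and 3.94 CPM in the controls, so that the level was 27.1-fold higher with 13.8 than with 13.6 (log2 -4.76 ± 0.19 SE, edgeR adjusted p = 5.24e-10). The 3 groups did not overlap. CCL2, a chemokine for monocytes, measured 0.436, 0.733 and 1.19 CPM with 13.6, 15.6, 19.1 and 17.03 CPM with 13.8 and 0.303, 0.286 and 0.342 CPM in the controls (log2 -4.44 ± 0.21 SE). ANXA1, an annexin with anti-inflammatory activity, measured 11.6, 9.87 and 8.97 CPM with 13.6, 145, 213 and 176 CPM with 13.8 and 14.8, 6.89 and 11.3 CPM in the controls (log2 -4.13 ± 0.23 SE). Libraries with 13.6 and control libraries overlapped for ANXA1, and the libraries with 13.8 stood far above both. CXCL8, a chemokine for neutrophils, measured 5.24, 7.07 and 7.85 CPM with 13.6, 82.7, 123 and 105 CPM with 13.8 and 21.3, 14.5 and 24.8 CPM in the controls (log2 -3.94 ± 0.22 SE). INHBE, an activin subunit, measured 4.70, 4.76 and 5.23 CPM with 13.6, 60.3, 78.0 and 61.3 CPM with 13.8 and 18.1, 12.1 and 15.6 CPM in the controls (log2 -3.76 ± 0.15 SE). For CXCL8 and INHBE the controls lay between the reagents.

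Of the other 7 genes of that side, 3 belong to the matrix or bind it. COL16A1, a fibril-associated collagen (log2 -4.03), PRELP, a leucine-rich matrix protein (-3.45), and DDR2, a receptor for collagen (-3.68), were joined by HKDC1, a hexokinase relative (-3.51), P2RX6, an ATP-gated channel subunit (-3.48), SORBS2, an adaptor of the actin cytoskeleton (-3.46), and BST2, which tethers budding virus to the cell (-3.04). SORBS2 was at 6.86, 7.03 and 6.75 CPM with 13.6, 67.4, 76.9 and 83.1 CPM with 13.8 and 46.9, 33.1 and 39.1 CPM in the controls. The libraries with 13.6 thus lay far below the other 6.

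**Figure D2:**
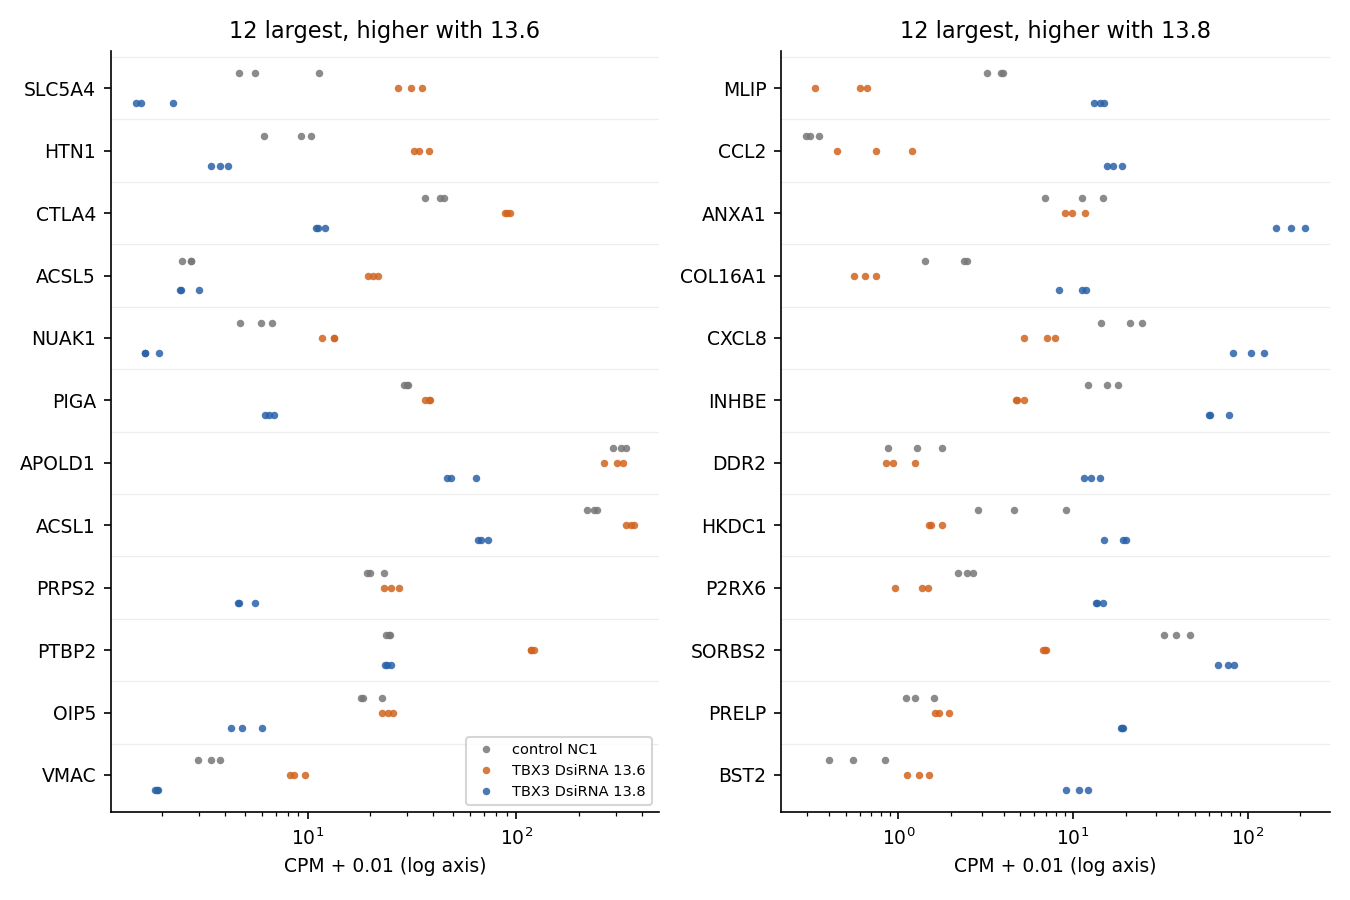
CPM (log axis, 0.01 added) in each of the 9 libraries for the 12 genes with the largest called difference in each direction, of those averaging 5 CPM or more over the knockdown libraries; grey points are control libraries, orange 13.6, blue 13.8. Orange and blue points do not overlap for any of these genes, which is how they were chosen, and the grey points lie among those of one reagent for some (PTBP2, APOLD1) and between the reagents for others (SLC5A4, MLIP).

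Genes moved in opposite directions from the shared controls were ranked by the smaller of their 2 changes. Beside SLC5A4, HTN1, NUAK1 and CTLA4, the leading genes above control with 13.6 and below it with 13.8 were LRP12, FBXO32, DCTN6 and STON2. FBXO32, a ubiquitin ligase component known from muscle wasting, measured 198, 199 and 182 CPM with 13.6, 102, 102 and 89.9 CPM in the controls and 48.3, 43.2 and 42.8 CPM with 13.8 (log2 0.98 and -1.13 against control). DCTN6, a dynactin subunit, measured 46.3, 48.4 and 49.5 CPM with 13.6, 23.1, 22.6 and 27.5 CPM in the controls and 9.91, 10.3 and 10.7 CPM with 13.8 (log2 0.98 and -1.24). In the other direction stood MLIP, HKDC1, INHBE, CXCL8, EPHX2, MYOZ2 and ZCCHC24. EPHX2, soluble epoxide hydrolase, measured 1.94, 1.49 and 1.17 CPM with 13.6, 4.42, 4.71 and 3.23 CPM in the controls and 10.4, 10.0 and 10.9 CPM with 13.8 (log2 -1.43 and 1.34). Each of the genes named here was called in both comparisons with control, and those comparisons share the 3 control libraries.

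The gene groups described next are lists of pathways, markers and complexes, written with earlier results of these data known, and each is given by its counts beside those of all genes tested (30.9% higher with 13.6, 30.2% higher with 13.8, median -0.02). Among lists with at least 17 tested members, the median lay furthest toward 13.6 for mitosis and furthest toward 13.8 for the undifferentiated state and matrix lists.

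**Figure D3:**
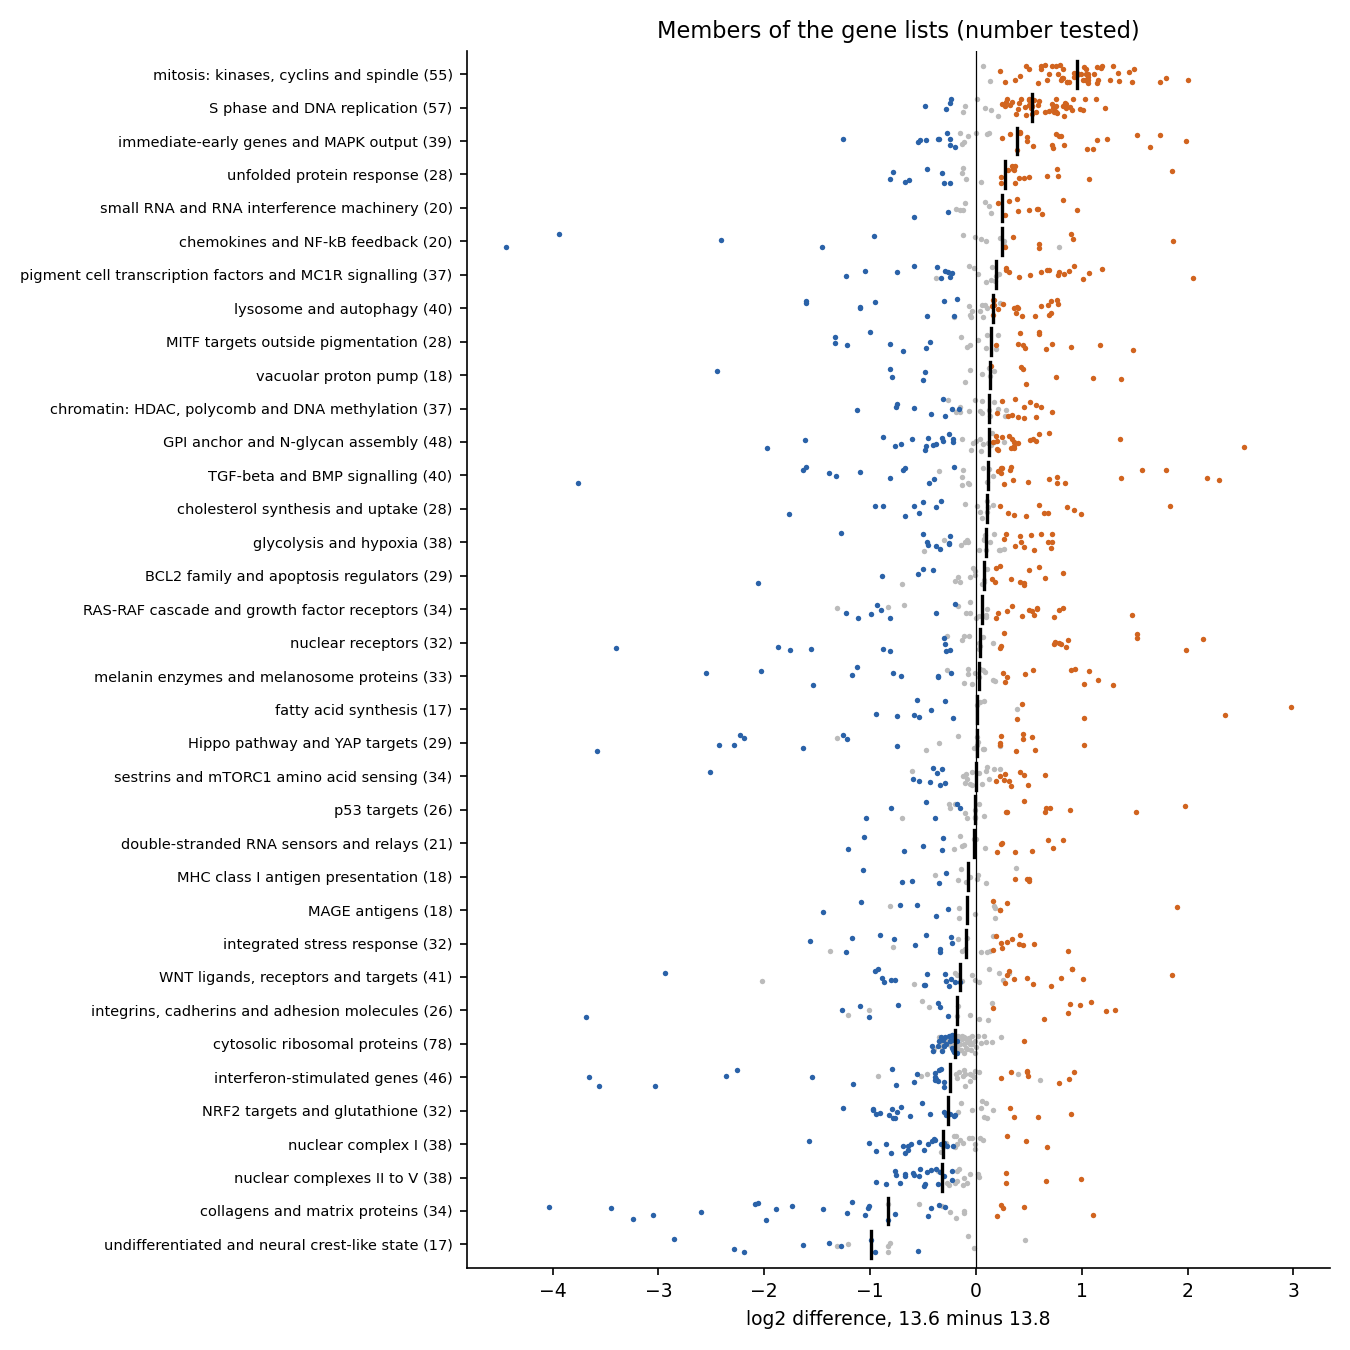
Log2 difference between 13.6 and 13.8 for the members of the 36 gene lists with at least 17 tested members, ordered by their median (black bar); orange points were called higher with 13.6, blue points higher with 13.8, grey points not called. The medians run from -0.987 for the undifferentiated state to 0.955 for mitosis, and most lists hold called members on both sides of 0.

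As a list, pigment genes were divided much as all genes tested were. Of 33 genes for melanin enzymes and melanosome proteins tested, 11 were higher with 13.6 and 10 higher with 13.8 (33.3% and 30.3%), with a median of 0.025. Over all genes tested the shares were 30.9% and 30.2% and the median -0.02. TYRP1, which acts late in eumelanin synthesis and stabilises tyrosinase, measured 2687, 2644 and 2752 CPM with 13.6, 8001, 7756 and 7737 CPM with 13.8 and 3457, 3615 and 3740.4 CPM in the controls. It was 2.91-fold higher with 13.8 than with 13.6 (log2 -1.54 ± 0.07 SE, edgeR adjusted p = 9.14e-10). The controls lay between, so that TYRP1 fell below control with 13.6 (log2 -0.42, edgeR adjusted p = 0.000125) and rose above it with 13.8 (log2 1.12, edgeR adjusted p = 1.34e-08). DCT, dopachrome tautomerase, showed the same order, with 386, 358 and 396 CPM with 13.6, 981, 755 and 751 CPM with 13.8 and 522, 575 and 504 CPM in the controls (log2 -1.12 ± 0.10 SE, edgeR adjusted p = 5.33e-07). TYR, tyrosinase, the rate-limiting enzyme, rose with both reagents. It measured 796, 809 and 819 CPM with 13.6, 729, 658 and 648 CPM with 13.8 and 373, 399.8 and 366 CPM in the controls, and differed little between the reagents (log2 0.25 ± 0.06 SE, edgeR adjusted p = 0.00434).

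MFSD12 showed the largest difference among the pigment genes named here. This lysosomal and melanosomal transporter, which imports cysteine, the amino acid that pheomelanin is built from, measured 108, 117 and 112 CPM with 13.6, 549, 743 and 685 CPM with 13.8 and 547, 402 and 571 CPM in the controls. It was 5.85-fold higher with 13.8 than with 13.6 (log2 -2.55 ± 0.14 SE, edgeR adjusted p = 2.09e-08). The 3 libraries with 13.6 lay far below the other 6. SLC7A11, which brings cystine into the cell, was at 269, 242 and 239 CPM with 13.6 and 215, 224 and 229 CPM with 13.8 (log2 0.17 ± 0.07 SE, edgeR adjusted p = 0.0625). It was not called here, and it was called with the replicate number as a block (edgeR adjusted p = 0.0347) and under 6 of the other 19 alternative settings. OCA2, a melanosomal chloride channel, fell with both reagents, from 68.1, 72.8 and 61.0 CPM in the controls to 23.4, 21.0 and 26.5 CPM with 13.6 and 29.7, 21.3 and 23.6 CPM with 13.8. Between the reagents it was not called (log2 -0.07 ± 0.12 SE, edgeR adjusted p = 0.615).

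Of the structural melanosome proteins, PMEL, the fibril protein, was at 8061, 8541 and 9039 CPM with 13.6 and 7023, 7137 and 6973 CPM with 13.8 (log2 0.28 ± 0.08 SE, edgeR adjusted p = 0.0103). Its call was lost without the third library with 13.6 (log2 0.24, edgeR adjusted p = 0.0543). MLANA, the melanoma antigen of early melanosomes, was not called (log2 0.07 ± 0.07 SE, edgeR adjusted p = 0.416). RAB38, a small GTPase that directs cargo to melanosomes, was lowered by both and further by 13.8, with 299, 305 and 320.4 CPM with 13.6, 156, 148 and 152 CPM with 13.8 and 509.6, 536 and 599.8 CPM in the controls (13.6 against 13.8, log2 1.02 ± 0.07 SE). AP3B1, an adaptor subunit of the same traffic, was at 68.7, 63.1 and 66.2 CPM with 13.6, 30.5, 25.9 and 24.2 CPM with 13.8 and 64.3, 69.2 and 60.2 CPM in the controls (log2 1.30 ± 0.09 SE). It was lower with 13.8 and not called against control with 13.6.

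**Figure D4:**
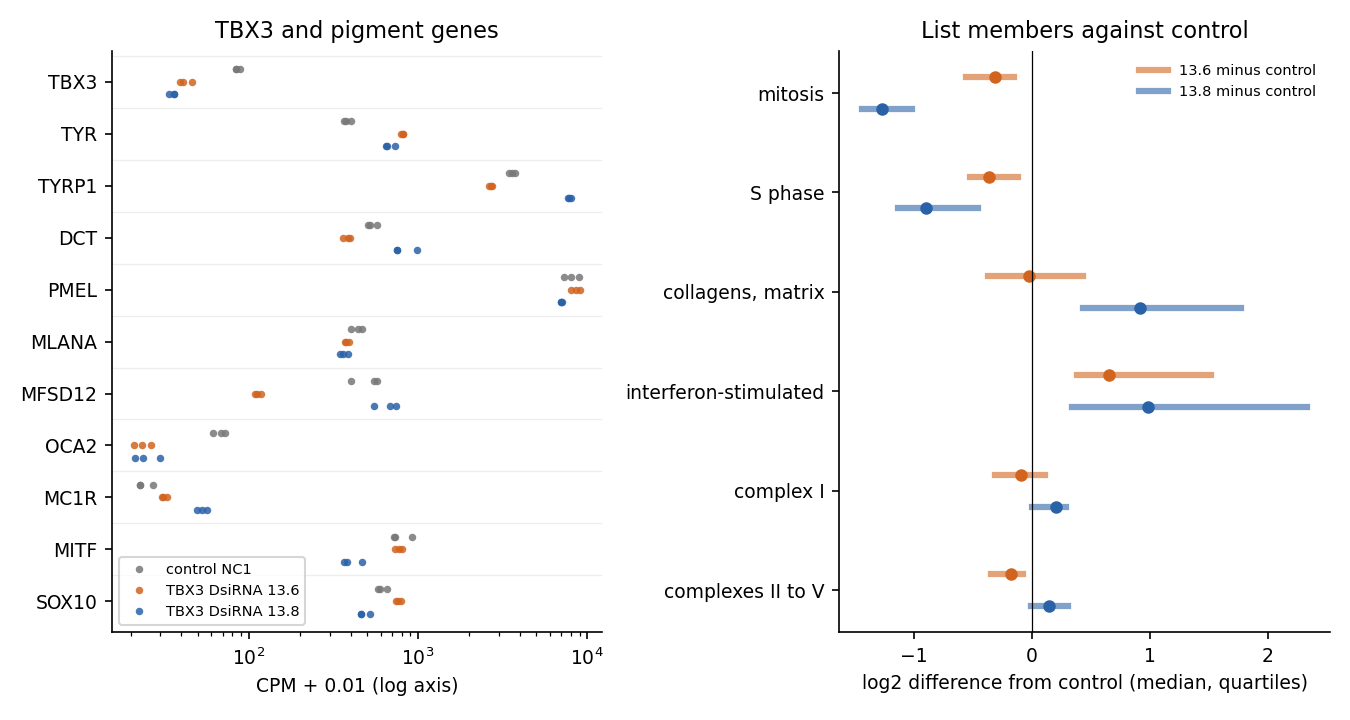
Left, CPM (log axis, 0.01 added) of TBX3 and 10 pigment genes in the 9 libraries, with control in grey, 13.6 in orange and 13.8 in blue; right, median (point) and quartiles (bar) of the log2 difference from control over the members of 6 gene lists, for 13.6 in orange and 13.8 in blue. TYRP1, DCT and MFSD12 have the 13.6 points below and the 13.8 points above or among the controls, OCA2 has both below, and the mitosis and S phase lists lie further below 0 with 13.8.

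The regulators of these genes did not all move as the enzymes did. MITF measured 767, 729.7 and 807 CPM with 13.6, 466, 363 and 379.6 CPM with 13.8 and 721, 925 and 729 CPM in the controls. The libraries with 13.6 overlapped the controls and those with 13.8 lay below both, a difference between the reagents of 0.93 ± 0.11 (SE) with an edgeR adjusted p of 9.26e-06. TYRP1 and DCT were thus higher in the libraries in which MITF was lower. SOX10 measured 743, 791 and 758 CPM with 13.6, 521, 459 and 459 CPM with 13.8 and 578, 656 and 596 CPM in the controls (log2 0.67 ± 0.07 SE, edgeR adjusted p = 3.39e-06), above control with one reagent and below it with the other. MC1R measured 30.7, 33.1 and 31.1 CPM with 13.6, 49.6, 52.6 and 56.6 CPM with 13.8 and 22.7, 27.3 and 22.8 CPM in the controls. It rose with both reagents and was 1.67-fold higher with 13.8 (log2 -0.74 ± 0.08 SE, edgeR adjusted p = 4.78e-06).

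Of 37 pigment cell transcription factors and genes of MC1R signalling tested, 17 were higher with 13.6 and 10 higher with 13.8 (median 0.188). Cyclic AMP genes were among them: ADCY2, an adenylyl cyclase, was at 71.0, 71.1 and 72.7 CPM with 13.6 and 19.6, 14.8 and 17.4 CPM with 13.8 (log2 2.05 ± 0.11 SE), and PRKACB, a catalytic subunit of protein kinase A, at 80.02, 84.0 and 81.0 and 40.8, 36.5 and 39.8 CPM (log2 1.07 ± 0.07 SE). LEF1, a partner of beta-catenin, was also higher with 13.6 (log2 1.01 ± 0.06 SE), and TFAP2A, a neural crest factor, higher with 13.8 (log2 -1.05 ± 0.07 SE). Of 28 MITF targets outside pigmentation, 12 were higher with 13.6 and 8 higher with 13.8 (median 0.146), with the sialyltransferase ST3GAL6 (log2 1.49 ± 0.07 SE) on one side and the transporter ABCB5 (log2 -1.33 ± 0.09 SE) on the other. The melanocyte marker S100B measured 34.3, 38.4 and 37.98 CPM with 13.6 and 83.6, 89.9 and 95.3 CPM with 13.8 (log2 -1.28 ± 0.10 SE).

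The promoter of TYRP1 is shown because the E-box CATGTG is the site at which MITF is known to act in pigment genes. CATGTG, searched on both strands in the 300 bases from 250 before to 50 after the gene's start, was present in 9 of 25 promoters of the melanin list (36.0%) and in 739 of 10476 promoters of genes tested (7.05%). The sequence is from RefSeq (GRCh38.p14, plus strand, chr9:12693135-12693434), with the motif in capitals.
TYRP1: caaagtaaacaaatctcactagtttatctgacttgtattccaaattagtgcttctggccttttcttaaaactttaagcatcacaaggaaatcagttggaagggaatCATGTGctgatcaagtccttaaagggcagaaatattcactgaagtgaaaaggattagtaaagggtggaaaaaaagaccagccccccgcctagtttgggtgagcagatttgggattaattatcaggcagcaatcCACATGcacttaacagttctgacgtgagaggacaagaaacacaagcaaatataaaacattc

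Organelle genes next to melanosomes were also called on both sides. ATP6V1E1, a stalk subunit of the proton pump that acidifies lysosomes and melanosomes, measured 46.7, 45.7 and 47.9 CPM with 13.6, 242, 267 and 254 CPM with 13.8 and 349, 346 and 388 CPM in the controls. It was 5.44-fold higher with 13.8 than with 13.6 (log2 -2.44 ± 0.07 SE, edgeR adjusted p = 8.72e-11). Other pump subunits went the other way: ATP6AP1 was at 241, 253 and 240.0 CPM with 13.6 and 92.9, 98.3 and 92.7 CPM with 13.8 (log2 1.37 ± 0.05 SE), and ATP6V1D at 165, 169.6 and 171 and 82.7, 76.2 and 76.1 CPM (log2 1.11 ± 0.06 SE). Of the 18 pump genes tested, 7 were higher with 13.6 and 5 higher with 13.8 (median 0.13). Of 40 genes of lysosomes and autophagy, 20 were higher with 13.6 and 9 higher with 13.8 (median 0.159). The 4 with the smallest adjusted p were all lower with 13.6. BECN1, a core autophagy protein, measured 40.6, 39.9 and 40.9 CPM with 13.6, 124, 121 and 123 CPM with 13.8 and 121, 115 and 119.9 CPM in the controls (log2 -1.60 ± 0.05 SE). It was called against control with 13.6 and not with 13.8, as was CTSA, cathepsin A (13.6 against 13.8, log2 -0.95 ± 0.05 SE).

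Cell cycle genes gave the most one-sided difference of the lists. All but 2 of 55 mitotic kinases, cyclins and spindle genes tested were higher with 13.6 (53, or 96.4%), none was higher with 13.8, and the median was 0.955. Of these, 25 differed by at least 2-fold. Of 57 genes of S phase and DNA replication, 47 were higher with 13.6 and 4 higher with 13.8 (82.5% and 7.02%, median 0.532). Most members of both lists were lower than control with either reagent. Of the mitotic genes, 39 were lower than control with 13.6 (median -0.315) and 53 with 13.8 (median -1.276). Of the S phase genes, 37 and 51 were (medians -0.362 and -0.902). Of all genes tested, 25.0% were lower than control with 13.6 and 27.9% with 13.8. The summed level of the mitosis list was 5817 to 6144 CPM in the control libraries, 4924 to 5093 CPM with 13.6 and 2420 to 2740 CPM with 13.8. In bulk RNA, fewer cells in a phase and less RNA per cell cannot be told apart.

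PLK1, the polo-like kinase that drives entry into mitosis, measured 101, 111 and 105 CPM with 13.6, 27.1, 27.6 and 24.1 CPM with 13.8 and 170.2, 161 and 155 CPM in the controls. The 3 groups did not overlap, and the level was 4.02-fold higher with 13.6 than with 13.8 (log2 2.01 ± 0.07 SE, edgeR adjusted p = 3.09e-10). CCNB1, the mitotic cyclin B1, measured 164, 173 and 179 CPM with 13.6, 53.7, 46.0 and 48.7 CPM with 13.8 and 189, 189 and 199.5 CPM in the controls (log2 1.80 ± 0.07 SE). It was called against control with 13.8 and not with 13.6 (edgeR adjusted p = 0.0532). PRC1, which bundles microtubules of the central spindle (log2 1.74 ± 0.08 SE), and TTK, a kinase of the spindle checkpoint (log2 1.26 ± 0.06 SE), were also higher with 13.6. In the S phase list, the chromatin assembly factor subunits CHAF1A (log2 0.92 ± 0.06 SE) and CHAF1B (log2 1.22 ± 0.09 SE), the origin protein ORC6 (log2 0.91 ± 0.06 SE) and the helicase subunit MCM5 (log2 0.83 ± 0.06 SE) led by adjusted p. MCM5 was at 83.5, 89.6 and 86.0 CPM with 13.6, 49.97, 46.6 and 48.8 CPM with 13.8 and 87.0, 93.3 and 87.8 CPM in the controls, and only the libraries with 13.8 were called against control. BIRC5, survivin, which serves both mitosis and survival, measured 58.7, 68.5 and 69.8 CPM with 13.6, 36.8, 36.6 and 37.8 CPM with 13.8 and 103, 111 and 121 CPM in the controls (log2 0.83 ± 0.08 SE).

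The promoter of PLK1 is shown since many mitotic promoters hold the pair of elements CHR and CCAAT that the cell cycle repressor complexes and NF-Y act on. The CHR letters TTTGAA or TTCGAA, on either strand, were present in 33 of 48 promoters of the mitosis list (68.8%), 2 of 48 of the S phase list (4.17%) and 1191 of the 10476 promoters of genes tested (11.4%). CCAAT, on either strand, was in 72.9%, 58.3% and 36.6% of the same promoters. The sequence is from RefSeq (GRCh38.p14, plus strand, chr16:23678639-23678938) with both motifs in capitals.
PLK1: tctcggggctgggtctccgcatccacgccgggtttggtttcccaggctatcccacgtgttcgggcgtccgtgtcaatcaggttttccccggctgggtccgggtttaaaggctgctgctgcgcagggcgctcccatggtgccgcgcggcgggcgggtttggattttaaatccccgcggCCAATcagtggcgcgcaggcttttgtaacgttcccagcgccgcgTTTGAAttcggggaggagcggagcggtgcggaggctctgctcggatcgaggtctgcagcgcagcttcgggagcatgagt

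Reported targets of TBX3, among them inhibitors of the cell cycle, were split. Of 6 reported TBX3 targets tested, 1 was higher with 13.6 and 2 higher with 13.8. These are 16.7% and 33.3%, beside 30.9% and 30.2% of all genes tested. CDKN2A, which encodes p16 and ARF, measured 195, 246 and 218 CPM with 13.6, 271, 387 and 407 CPM with 13.8 and 146, 147 and 236 CPM in the controls (log2 -0.69 ± 0.19 SE, edgeR adjusted p = 0.00855), and lost its call when no read filter was used (edgeR adjusted p = 0.082). CDKN1A, p21, was under 1 CPM in each library and was called higher with 13.6 (log2 1.97 ± 0.74 SE, edgeR adjusted p = 0.033). That call was lost without the third library with 13.6 or the first or the third with 13.8 (edgeR adjusted p = 0.129, 0.0923 and 0.0715). CDH1, E-cadherin, was at 1.96, 2.11 and 1.98 CPM with 13.6 and 2.15, 1.40 and 1.89 CPM with 13.8 and was not called (log2 0.16 ± 0.19 SE, edgeR adjusted p = 0.499). NCAM1 and CDKN1C were not called either, but NCAM1 was called in the fits of the 6 knockdown libraries alone (log2 -0.18, edgeR adjusted p = 0.0324, and 0.0028 with the replicate number as a block). Of 26 p53 targets, 9 were higher with 13.6 and 6 higher with 13.8 (median -0.01), led by RRM2B, a ribonucleotide reductase subunit (log2 1.52 ± 0.07 SE).

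T-box genes were called on both sides. Of 8 T-box genes tested, TBX3 included, 4 were higher with 13.6 and 2 higher with 13.8. TBX2, the closest relative of TBX3, measured 17.3, 18.7 and 16.3 CPM with 13.6, 27.1, 27.6 and 29.6 CPM with 13.8 and 25.8, 25.8 and 23.1 CPM in the controls (log2 -0.69 ± 0.08 SE, edgeR adjusted p = 6.9e-06). It was lower than control with 13.6 and not called against control with 13.8 (edgeR adjusted p = 0.0712). EOMES, a factor of early development, measured 7.35, 6.83 and 6.25 CPM with 13.6, 2.72, 1.94 and 2.20 CPM with 13.8 and 1.75, 2.37 and 1.08 CPM in the controls (log2 1.58 ± 0.21 SE). TBX6 (log2 -1.05 ± 0.19 SE), TBX18 (log2 0.34 ± 0.07 SE) and MGA (log2 0.42 ± 0.10 SE) were called, and TBX19 and TBX15 were not.

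Matrix genes were higher with 13.8. Of 34 collagens and matrix proteins tested, 22 were higher with 13.8 and 5 higher with 13.6 (64.7% and 14.7%, median -0.829), and 16 of the 22 differed by at least 2-fold. Their summed level was 3004 to 3997 CPM in the controls, 3488 to 3781 CPM with 13.6 and 4752 to 5171 CPM with 13.8. Against control, 28 were higher with 13.8 (median 0.915) and 15 higher with 13.6 (median -0.027), beside 27.5% and 24.9% of all genes tested. PRELP measured 1.94, 1.62 and 1.69 CPM with 13.6, 19.2, 19.2 and 18.9 CPM with 13.8 and 1.23, 1.59 and 1.10 CPM in the controls, COL16A1 0.63, 0.733 and 0.55 CPM, 8.34, 11.8 and 11.3 CPM and 2.36, 1.40 and 2.47 CPM in the same order. LAMB2, a laminin chain of basement membranes, measured 94.4, 90.3 and 86.7 CPM with 13.6, 191, 186 and 184 CPM with 13.8 and 159, 149 and 138 CPM in the controls (log2 -1.05 ± 0.06 SE). LUM, lumican, which spaces collagen fibrils, measured 2.40, 3.08 and 2.82 CPM with 13.6, 9.47, 11.3 and 12.01 CPM with 13.8 and 2.75, 3.69 and 2.96 CPM in the controls (log2 -1.98 ± 0.15 SE).

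Because fibroblasts make many of these proteins, markers of other cell types were read in the same libraries. Of 11 fibroblast markers, 8 were tested, 7 of which were higher with 13.8 and none higher with 13.6 (median -2.291). The call of PDGFRA (log2 -0.99 ± 0.37 SE) was lost without any one of 5 knockdown libraries (edgeR adjusted p from 0.0593 to 0.139), all but the first with 13.6. THY1 was not called (edgeR adjusted p = 0.067), but was in the fit of the 6 knockdown libraries with the replicate block (0.00335). The markers' summed level was 5.65 to 6.86 CPM in the controls, 7.30 to 9.08 CPM with 13.6 and 27.8 to 28.7 CPM with 13.8. POSTN, periostin, measured 0.461, 0.517 and 0.484 CPM with 13.6 and 5.10, 3.62 and 3.52 CPM with 13.8, FAP, fibroblast activation protein, 0.097, 0.388 and 0.22 and 3.13, 3.45 and 3.37 CPM, and COL1A1, the main chain of collagen I, 0.994, 1.62 and 0.99 and 2.80, 2.75 and 2.85 CPM. COL3A1, PDGFRB and ACTA2 had too few reads to be tested. The matrix list and the fibroblast markers share LUM, POSTN, COL1A1, COL1A2 and DCN. Of 8 keratinocyte markers only KRT10 was tested (not called), and KRT5 had no read in any library. Of 10 leukocyte markers 4 were tested, of which only CD68 was called (log2 0.35 ± 0.06 SE). Their summed level was 73.5 to 79.2 CPM in the controls, 100 to 106 CPM with 13.6 and 77.3 to 83.2 CPM with 13.8. Nearly all of it was CD68, with 2782 to 3362 reads in the control libraries. LYZ had 27 to 46 reads there, ITGAM 12 to 14 and PTPRC 4 to 10. Of 6 endothelial markers 2 were tested, KDR (not called) and VWF (log2 -1.41 ± 0.44 SE, lost without the third library with 13.6 or the second with 13.8, edgeR adjusted p = 0.0524 and 0.072), with a summed level at or below 1.15 CPM in each library. The part of other cells in the matrix result was not tested.

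Called genes of the list for neural crest-like, undifferentiated melanoma cells were all higher with 13.8. Of 17 tested, 9 were higher with 13.8 and none higher with 13.6 (52.9%, median -0.987). CTGF, a matricellular target of YAP, measured 22.7, 21.5 and 20.04 CPM with 13.6, 89.9, 98.1 and 106 CPM with 13.8 and 60.4, 53.5 and 55.0 CPM in the controls (log2 -2.19 ± 0.08 SE, edgeR adjusted p = 3.74e-10). CYR61, its relative, measured 14.2, 13.2 and 12.9 CPM with 13.6, 55.3, 69.6 and 71.9 CPM with 13.8 and 73.0, 48.3 and 58.5 CPM in the controls (log2 -2.29 ± 0.14 SE). CYR61 was called against control with 13.6 only, so that its difference lay on that side. LOXL2, a collagen cross-linking oxidase, measured 0.485, 0.41 and 0.33 CPM with 13.6 and 3.16, 3.04 and 2.68 CPM with 13.8 (log2 -2.86 ± 0.29 SE). Against control, 7 of the 17 were lower with 13.6 and 1 was lower with 13.8, beside 25.0% and 27.9% of all genes tested. Of 29 genes of the Hippo pathway and its YAP targets, which hold CTGF and CYR61 too, 9 were higher with each reagent (median 0.009), and AMOTL2, an angiomotin that YAP induces, measured 9.58, 6.68 and 7.83 CPM with 13.6 and 40.8, 42.5 and 45.8 CPM with 13.8 (log2 -2.42 ± 0.15 SE).

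The transcription factors of the epithelial-mesenchymal switch did not follow the matrix. Of 7 tested, 4 were higher with 13.6 and 2 higher with 13.8. SNAI2, slug, measured 192, 195 and 192 CPM with 13.6, 83.4, 80.1 and 83.9 CPM with 13.8 and 90.9, 104.03 and 104.02 CPM in the controls (log2 1.23 ± 0.06 SE). SNAI1, snail, measured 14.0, 14.8 and 13.6 CPM with 13.6, 8.03, 7.21 and 6.20 CPM with 13.8 and 5.50, 5.85 and 4.33 CPM in the controls (log2 0.98 ± 0.12 SE). FOXC2 was higher with 13.6 (log2 2.33 ± 0.17 SE) and its relative FOXC1 higher with 13.8 (log2 -1.20 ± 0.08 SE). ZEB2 was higher with 13.8 (log2 -0.37 ± 0.07 SE), TWIST1 was not called (edgeR adjusted p = 0.139, and 0.0285 in the fit of the 6 knockdown libraries with the replicate block), and ZEB1, under 0.5 CPM in each library, was higher with 13.6 (log2 1.69 ± 0.55 SE), a call lost without the second library of either reagent (edgeR adjusted p = 0.0571 and 0.0633). Among 26 integrins, cadherins and adhesion molecules, 8 were higher with each reagent. ITGAV, the alpha-v integrin chain, measured 95.7, 91.3 and 97.0 CPM with 13.6, 193, 183 and 194 CPM with 13.8 and 84.8, 89.6 and 82.4 CPM in the controls (log2 -1.01 ± 0.06 SE), and MCAM, a melanoma adhesion molecule, 388, 395 and 384, 200.3, 173 and 175 and 190.2, 227 and 191 CPM in the same order (log2 1.09 ± 0.08 SE).

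Interferon-stimulated genes were above control with both reagents, and a subset was far higher with 13.8. Of 46 tested, 33 were higher than control with 13.6 (median 0.656), beside 24.9% of all genes tested. With 13.8, 34 were (median 0.988), beside 27.5%, and both comparisons share the controls. Between the reagents, 20 were higher with 13.8 and 8 higher with 13.6 (43.5% and 17.4%, median -0.244). The 7 that differed by at least 2-fold were all higher with 13.8. IFIT1, which binds viral RNA that lacks cap methylation, measured 7.78, 9.14 and 9.72 CPM with 13.6, 37.4, 48.0 and 42.1 CPM with 13.8 and 2.90, 4.24 and 3.42 CPM in the controls (log2 -2.26 ± 0.13 SE, edgeR adjusted p = 1.07e-08). IFI44 measured 2.42, 3.26 and 2.99 CPM with 13.6, 14.6, 14.8 and 15.3 CPM with 13.8 and 0.325, 0.962 and 0.66 CPM in the controls (log2 -2.36 ± 0.18 SE). BST2 measured 1.12, 1.49 and 1.30 CPM with 13.6, 9.13, 10.9 and 12.2 CPM with 13.8 and 0.541, 0.832 and 0.391 CPM in the controls (log2 -3.04 ± 0.19 SE). The groups did not overlap for any of these 3 genes. ISG20, an exonuclease, was higher with 13.6 (74.1, 80.8 and 76.2 against 43.5, 45.8 and 45.0 CPM, log2 0.78 ± 0.07 SE).

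These promoters carry the interferon-stimulated response element, spelled here as GAAA, any 2 bases and GAAA, on either strand. It was present in 23 of 38 promoters of the interferon list (60.5%) and in 305 of the 10476 promoters of genes tested (2.91%). The promoters of IFIT1 and BST2 are shown because these genes led the difference, with the element in capitals, from RefSeq (GRCh38.p14; IFIT1 on the plus strand at chr10:89392373-89392672, BST2 on the minus strand at chr19:17405581-17405880).
IFIT1: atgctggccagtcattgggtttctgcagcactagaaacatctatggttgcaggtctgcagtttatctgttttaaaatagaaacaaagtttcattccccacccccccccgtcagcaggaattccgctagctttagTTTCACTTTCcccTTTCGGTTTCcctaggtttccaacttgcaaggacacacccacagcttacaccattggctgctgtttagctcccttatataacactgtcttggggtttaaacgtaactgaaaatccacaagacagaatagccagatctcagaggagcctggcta
BST2: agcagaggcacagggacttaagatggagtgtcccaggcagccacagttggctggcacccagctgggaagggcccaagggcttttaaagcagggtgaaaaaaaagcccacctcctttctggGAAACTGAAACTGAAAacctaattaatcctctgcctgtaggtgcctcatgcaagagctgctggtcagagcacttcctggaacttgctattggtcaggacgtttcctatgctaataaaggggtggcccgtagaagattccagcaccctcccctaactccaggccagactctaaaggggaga

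Sensors of double-stranded RNA and their relays, which act upstream of interferon, were split. Of 21 tested, 8 were higher with 13.6 and 6 higher with 13.8 (median -0.021). These are 38.1% and 28.6%, beside 30.9% and 30.2% of all genes tested. TMEM173, the DNA-sensing adaptor STING, measured 11.5, 13.6 and 11.5 CPM with 13.6, 22.2, 28.1 and 26.2 CPM with 13.8 and 9.16, 10.1 and 10.6 CPM in the controls (log2 -1.06 ± 0.11 SE). TBK1, the kinase that activates IRF3, was at 56.3, 55.1 and 58.9 CPM with 13.6 and 35.8, 35.1 and 35.0 CPM with 13.8 (log2 0.69 ± 0.06 SE), and ADAR, which edits double-stranded RNA, at 412, 395 and 399 and 245, 216 and 221 CPM (log2 0.82 ± 0.09 SE). Of 20 genes of the RNA interference machinery itself, 11 were higher with 13.6 and 2 higher with 13.8 (median 0.245). DICER1 was at 59.3, 48.6 and 49.3 CPM with 13.6, 36.9, 31.5 and 33.7 CPM with 13.8 and 49.2, 45.2 and 42.2 CPM in the controls (log2 0.62 ± 0.09 SE). PRKRA, a double-stranded RNA-binding partner of Dicer, was at 29.9, 32.1 and 31.0 and 15.2, 17.3 and 15.5 CPM (log2 0.95 ± 0.08 SE), and AGO3 at 38.1, 35.8 and 37.8 and 24.4, 24.9 and 24.9 CPM (log2 0.59 ± 0.07 SE). Of 18 genes of antigen presentation by MHC class I, 4 were higher with 13.6, led by the peptide transporter TAP2 (log2 0.50 ± 0.06 SE), and 5 higher with 13.8.

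The chemokines CCL2 and CXCL8, described above, stood apart from their list. Of 20 chemokines and genes of NF-kB feedback tested, 7 were higher with 13.6 and 5 higher with 13.8 (median 0.243). Without the first library with 13.8, 4 and 5 were. TNFAIP3, the A20 brake on NF-kB, measured 499, 485 and 446 CPM with 13.6, 276, 240.0 and 248 CPM with 13.8 and 456, 467 and 426 CPM in the controls (log2 0.90 ± 0.07 SE). ICAM1, an adhesion receptor that NF-kB induces, measured 169, 176 and 171 CPM with 13.6, 117, 114 and 111 CPM with 13.8 and 116, 124 and 114 CPM in the controls (log2 0.59 ± 0.06 SE).

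Immediate-early genes and the output of MAP kinases were higher with 13.6 in most called cases. Of 39 tested, 22 were higher with 13.6 and 10 higher with 13.8 (56.4% and 25.6%, median 0.39). NR4A3, an orphan nuclear receptor induced by cyclic AMP and stress, measured 155, 149 and 144 CPM with 13.6, 41.2, 36.2 and 35.5 CPM with 13.8 and 203, 232 and 194 CPM in the controls (log2 1.99 ± 0.08 SE, edgeR adjusted p = 6.96e-10). NR4A1, its relative, measured 345, 377 and 331 CPM with 13.6, 117, 127 and 122 CPM with 13.8 and 323, 344 and 306 CPM in the controls (log2 1.52 ± 0.07 SE), and EGR2, an immediate-early zinc finger factor, 39.7, 37.2 and 38.7, 16.3, 16.1 and 16.5 and 41.9, 38.5 and 38.5 CPM in the same order (log2 1.24 ± 0.07 SE). NR4A1 and EGR2 were called against control with 13.8 and not with 13.6. Of 34 genes of the RAS-RAF cascade and growth factor receptors, 14 were higher with 13.6 and 8 higher with 13.8. MAP2K2, the kinase MEK2, was higher with 13.8 (log2 -0.89 ± 0.07 SE). ERBB3, the neuregulin receptor, measured 16.5, 18.0 and 16.5 CPM with 13.6, 40.1, 37.5 and 33.0 CPM with 13.8 and 13.8, 13.7 and 12.8 CPM in the controls (log2 -1.12 ± 0.08 SE).

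Signals of the TGF-beta and WNT families showed single large differences. Of 40 TGF-beta and BMP genes tested, 18 were higher with 13.6 and 12 higher with 13.8 (median 0.118). SMAD9, a transducer of BMP signals, measured 26.4, 27.5 and 31.2 CPM with 13.6, 7.42, 5.73 and 5.61 CPM with 13.8 and 17.1, 21.7 and 16.5 CPM in the controls (log2 2.18 ± 0.13 SE). ID2, a BMP target that blocks basic helix-loop-helix factors, measured 8.10, 8.69 and 8.47 CPM with 13.6, 22.9, 27.1 and 26.9 CPM with 13.8 and 5.26, 5.98 and 7.97 CPM in the controls (log2 -1.61 ± 0.13 SE). Of 41 WNT genes, 12 were higher with 13.6 and 16 higher with 13.8 (median -0.15). CCND1, cyclin D1, measured 1541, 1455 and 1464 CPM with 13.6, 937, 833 and 779 CPM with 13.8 and 1203, 1102 and 1049 CPM in the controls (log2 0.81 ± 0.08 SE). RNF43, a ubiquitin ligase that removes WNT receptors, was higher with 13.8 (log2 -0.89 ± 0.08 SE).

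Genes of the endoplasmic reticulum leaned toward 13.6. Of 28 genes of the unfolded protein response tested, 16 were higher with 13.6 and 8 higher with 13.8 (57.1% and 28.6%, median 0.273). PDIA6, a disulfide isomerase, measured 513, 525 and 530.3 CPM with 13.6, 149, 142 and 142 CPM with 13.8 and 297, 302 and 299.8 CPM in the controls, above control with one reagent and below it with the other (log2 1.86 ± 0.05 SE, edgeR adjusted p = 8.72e-11). ATF6, a sensor of the response, was at 97.6, 90.8 and 95.9 CPM with 13.6 and 55.6, 55.3 and 56.3 CPM with 13.8 (log2 0.77 ± 0.06 SE), and HYOU1, a chaperone, at 169, 175 and 174 and 276, 259.6 and 266 CPM (log2 -0.63 ± 0.06 SE). Of 32 genes of the integrated stress response, 11 were higher with each reagent (median -0.091). Its ATF4 targets ASNS, asparagine synthetase (log2 -1.17 ± 0.08 SE), and CHAC1, which degrades glutathione (log2 -1.22 ± 0.10 SE), were higher with 13.8, and MTHFD2, a mitochondrial folate enzyme (log2 0.87 ± 0.07 SE), higher with 13.6. Of 48 genes of GPI anchor and N-glycan assembly, which the PIGA result touches, 20 were higher with 13.6 and 16 higher with 13.8. MGAT1, which opens the way to complex N-glycans, measured 453, 446 and 468 CPM with 13.6 and 174, 183 and 175 CPM with 13.8 (log2 1.36 ± 0.06 SE), and PIGF, a late GPI enzyme subunit, 7.30, 6.47 and 6.53 and 26.2, 27.4 and 26.2 CPM (log2 -1.98 ± 0.10 SE).

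NRF2 targets and genes of glutathione leaned toward 13.8. Of 32 tested, 19 were higher with 13.8 and 4 higher with 13.6 (59.4% and 12.5%, median -0.264). FTH1, the ferritin heavy chain that stores iron and has many pseudogenes that could share its reads, measured 2850.4, 2892 and 2769 CPM with 13.6, 5236, 5881 and 5307 CPM with 13.8 and 4463, 4028 and 4124 CPM in the controls (log2 -0.95 ± 0.07 SE). SRXN1, sulfiredoxin, measured 67.5, 66.2 and 70.2 CPM with 13.6, 116, 124 and 112 CPM with 13.8 and 88.4, 85.6 and 88.1 CPM in the controls (log2 -0.79 ± 0.06 SE), and GSR, glutathione reductase, 43.1, 44.0 and 44.5, 79.96, 76.9 and 75.2 and 86.7, 96.5 and 93.9 CPM in the same order (log2 -0.82 ± 0.06 SE). PRDX6, a peroxiredoxin, went the other way (log2 0.90 ± 0.06 SE). Against control, 16 of the 32 were lower with 13.6, and 12 were higher and 9 lower with 13.8. Of all genes tested, 25.0% were lower with 13.6, and 27.5% were higher and 27.9% lower with 13.8.

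Nuclear genes of the respiratory chain leaned the same way. Of 38 complex I genes, 20 were higher with 13.8 and 3 higher with 13.6 (52.6% and 7.89%, median -0.307), and of 38 genes of complexes II to V, 21 and 4 (55.3% and 10.5%, median -0.32). NDUFB10, a complex I subunit, measured 25.1, 30.2 and 30.3 CPM with 13.6, 73.9, 89.4 and 91.4 CPM with 13.8 and 75.4, 82.7 and 97.9 CPM in the controls (log2 -1.57 ± 0.11 SE), and was called against control with 13.6 only. Succinate dehydrogenase was split, with SDHC higher with 13.8 (log2 -0.85 ± 0.07 SE) and SDHA higher with 13.6 (log2 0.66 ± 0.07 SE). Without a read filter, 13 genes of complexes II to V were higher with 13.8. Of 13 genes encoded in mitochondrial DNA, 4 were higher with 13.8 and 1 higher with 13.6 (median 0.004). Of 78 cytosolic ribosomal protein genes, 20 were higher with 13.8 and 1 higher with 13.6 (median -0.2). These genes have many pseudogenes, and the count moved with single libraries. It was 5 without the first library with 13.6 or the second with 13.8, 6 without the third with 13.8, 12 without the second or the third with 13.6, 34 without the third control and 37 without the first with 13.8, and it was 36 with the replicate number as a block and 55 with that block in a fit of the 6 knockdown libraries alone.

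The fatty acid genes ACSL1 and ACSL5 were among the largest differences. ACSL1, which activates fatty acids, measured 369, 355 and 335 CPM with 13.6, 73.4, 68.0 and 65.4 CPM with 13.8 and 244, 237 and 219 CPM in the controls (log2 2.36 ± 0.07 SE, edgeR adjusted p = 8.72e-11). With ACSL5 it led a list of 17 genes of fatty acid synthesis of which 5 were higher with 13.6 and 8 higher with 13.8. FASN, fatty acid synthase, measured 349.9, 356 and 339 CPM with 13.6, 191, 165 and 159 CPM with 13.8 and 273, 283 and 219 CPM in the controls (log2 1.02 ± 0.09 SE). Of 28 genes of cholesterol synthesis and uptake, 11 were higher with 13.6 and 9 higher with 13.8. TM7SF2, a sterol reductase, was among those higher with 13.8 (log2 -1.76 ± 0.11 SE). Of 38 genes of glycolysis and hypoxia, 13 were higher with 13.6 and 9 higher with 13.8, led by HIF1A, the hypoxia factor itself (log2 0.72 ± 0.06 SE).

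Members of some smaller families parted. NEK7, a kinase of the NLRP3 inflammasome and of mitosis, measured 205, 193 and 205 CPM with 13.6, 53.1, 52.7 and 53.5 CPM with 13.8 and 20.5, 21.4 and 21.7 CPM in the controls. It rose with both reagents, further with 13.6 (log2 1.92 ± 0.06 SE, edgeR adjusted p = 8.72e-11). NEK2, a centrosomal kinase of mitosis, was higher with 13.6 as well (log2 0.93 ± 0.08 SE), and NEK6 (log2 -0.65 ± 0.07 SE) and NEK1 (log2 -0.58 ± 0.08 SE) higher with 13.8. Of 9 NEK kinases tested, 4 were higher with each reagent (44.4%), beside 30.9% and 30.2% of all genes tested. Of 9 annexins, which bind membranes in the presence of calcium, 3 were higher with 13.6 and 4 higher with 13.8 (33.3% and 44.4%). ANXA2 measured 777, 816 and 856 CPM with 13.6, 1456, 1541 and 1466 CPM with 13.8 and 1084, 1081 and 1164 CPM in the controls (log2 -0.87 ± 0.06 SE). ANXA7 was higher with 13.6 (log2 0.62 ± 0.07 SE), and ANXA4 and ANXA5 were not called.

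The remaining lists held called members on both sides. Of 29 genes of the BCL2 family and apoptosis control, 12 were higher with 13.6, among them MCL1, which keeps cells alive (log2 0.65 ± 0.06 SE), and 5 higher with 13.8, among them BCL2L11, which encodes the killer protein BIM (log2 -0.89 ± 0.11 SE). Of 34 genes of sestrins and amino acid sensing by mTORC1, 10 were higher with 13.6 and 9 higher with 13.8, with RRAGC, a Rag GTPase (log2 0.66 ± 0.06 SE), and GATSL3, an arginine sensor (log2 -2.51 ± 0.13 SE), on opposite sides. Of 18 MAGE antigens, 5 were higher with 13.6 and 6 higher with 13.8, MAGED1 among the latter (log2 -1.09 ± 0.08 SE). Of 32 nuclear receptors, 13 were higher with 13.6 and 10 higher with 13.8. RXRG, a retinoid X receptor, measured 56.5, 56.9 and 57.2 CPM with 13.6, 22.9, 17.3 and 19.3 CPM with 13.8 and 28.7, 37.99 and 30.6 CPM in the controls (log2 1.52 ± 0.11 SE), and NR2F1, an orphan receptor of the neural crest, was higher with 13.8 (log2 -1.56 ± 0.08 SE). Of 37 chromatin genes, 13 were higher with 13.6 and 9 higher with 13.8. EZH2, the polycomb methyltransferase (log2 0.57 ± 0.07 SE), and its partner EED (log2 0.61 ± 0.07 SE) were both higher with 13.6.

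The 2 words shown in the TBX3 transcript divided the genes further. They were picked in an earlier search of these data because their carriers lay lowest, with 13.8 for AACTGTC and with 13.6 for GCTCTGT. The direction of the carriers was part of that choice, so their counts are a description and carry no test. In the longest annotated 3′ UTR of each of 12466 genes, AACTGTC was present in 1374 (11.0%). Of these carriers, 52.5% were higher with 13.6 and 19.4% higher with 13.8, beside 33.4% and 30.2% of all genes searched, and their median was 0.275 beside 0.01. Against control, the carriers' median was -0.195 with 13.8 and 0.079 with 13.6. The median between the reagents was 0.383 for the 547 genes in which the word was followed by A, and 0.389 for the 170 genes with 2 or more copies. It was 0.165 for the 815 genes with the word in the coding sequence only, and 0.06 for the 1121 genes with only its reverse complement in the 3′ UTR.

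GCTCTGT was present in 2590 genes (20.8%), of which 29.8% were higher with 13.6 and 37.7% higher with 13.8 (median -0.071). Against control, the carriers' median was -0.092 with 13.6 and -0.012 with 13.8. In the 439 genes in which it was followed by A, 25.5% were higher with 13.6 and 46.9% higher with 13.8 (median -0.223). With 2 or more copies (586 genes) the median was -0.073, beside -0.071 with 1 copy. The 1341 genes with the word in the coding sequence only had a median of -0.104. Among the 633 searched genes at least 2-fold higher with 13.6, 28.9% carried AACTGTC, beside 11.0% of all. At 4-fold or more it was 29.9% of 67. Among the 1053 at least 2-fold higher with 13.8, 26.5% carried GCTCTGT, beside 20.8% of all, and at 4-fold or more it was 20.3% of 271. The 8981 genes with neither word (72.0%) had a median of 0.001, with 2872 higher with 13.6 and 2652 higher with 13.8. Another word of the earlier search, GATTAAC, was picked because its carriers lay higher against control, so that direction carries no test either. GATTAAC was present in 729 genes (5.85%), NEK7 among them. Its carriers lay above control with both reagents (medians 0.267 with 13.6 and 0.182 with 13.8, in comparisons that share the controls), and their median between the reagents was 0.086. No mature human microRNA in the RefSeq table at hand, of 2545, has a seed (bases 2 to 8) that pairs with all 7 letters of AACTGTC or GCTCTGT. Why the carriers differed was not tested.

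**Figure D5:**
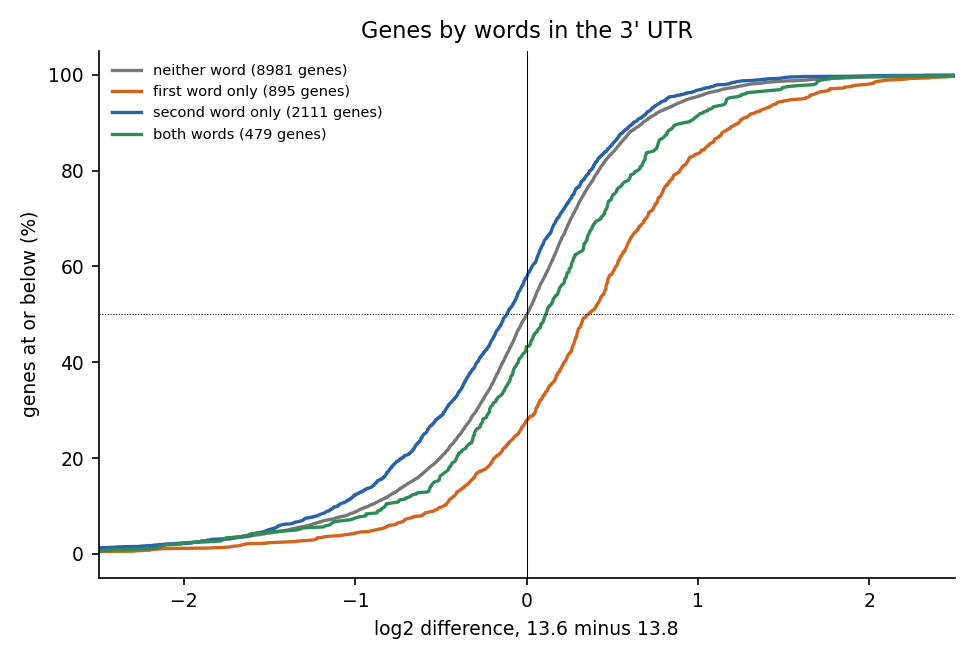
Cumulative share of genes (vertical axis, percent) at or below each log2 difference between 13.6 and 13.8 (horizontal axis), for 895 genes with only AACTGTC (first word) in the 3′ UTR, 2111 with only GCTCTGT (second word), 479 with both and 8981 with neither. The curve of the first word lies to the right of the others, with a median of 0.359, that of the second to the left, with -0.116, and genes with both lie between, with 0.112.

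The length of the 3′ UTR moves with both the words and the differences. Carriers of AACTGTC had a median length of 3224 bases and carriers of GCTCTGT one of 2979 bases, beside 1354 bases over all genes searched. Across 5 equal groups by length, the median difference ran from -0.106 in the shortest to 0.103 in the longest. Across 5 equal groups by base composition of the 3′ UTR, it ran from 0.085 in the one with the least G and C to -0.159 in the one with the most. Carriers are therefore also given within groups of length, again as a description, since the words were picked by the direction of their carriers. In all 5 groups the carriers of AACTGTC had a higher median than the genes without it (0.228 to 0.497 beside -0.112 to 0.061). In all 5 the carriers of GCTCTGT had a lower median than the genes without it (-0.53 to 0.049 beside -0.096 to 0.163). In the shortest group, 22 of 42 carriers of AACTGTC were higher with 13.6 and 5 higher with 13.8, beside 539 and 831 of 2452 genes without it. In the same group, 8 of 82 carriers of GCTCTGT were higher with 13.6 and 52 higher with 13.8, beside 553 and 784 of 2412 genes without it. The words thus stood out most in the genes with short 3′ UTRs, where few genes carry them. The part of base composition in these values was not tested.

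The places in some of the genes described above are shown to let the neighbourhood of the word be read, first where the gene differed as the carriers' median did and then where it differed the other way. PIGA and APOLD1, both lower with 13.8, carry AACTGTC followed by A, PIGA in 3 copies beside 1 copy of GCTCTGT, and PLK1 carries it followed by C. ATP6V1E1 and NDUFB10, both lower with 13.6, carry GCTCTGT followed by A, and BECN1 carries it followed by G. The genes were chosen after their values were seen. The other way, NUAK1, ADCY2 and PTBP2 carry GCTCTGT and were higher with 13.6. DCN (log2 -3.24 ± 0.65 SE) and SDHC carry AACTGTC as well as GCTCTGT and were higher with 13.8. All are from GENCODE 29 on GRCh38, in the 3′ UTR, 5′ to 3′ on the transcript, with the word in capitals.
PIGA copy 1, chrX:15320363-15320389, minus strand: ggatgttattAACTGTCattgttgttg
PIGA copy 2, chrX:15319805-15319831, minus strand: ttaattcttaAACTGTCatttatttga
PIGA copy 3, chrX:15319645-15319671, minus strand: ccttaattgtAACTGTCagtttgcact
APOLD1, chr12:12789641-12789667, plus strand: gtctgtaagaAACTGTCagtgaaaata
PLK1, chr16:23690310-23690336, plus strand: ttgaattcggAACTGTCctttccttgg
ATP6V1E1, chr22:17592547-17592573, minus strand: ccccagtattGCTCTGTatttatcagc
NDUFB10, chr16:1961924-1961950, plus strand: ctgctgtgtgGCTCTGTatgactgttg
BECN1, chr17:42810217-42810243, minus strand: tgccgactctGCTCTGTgttagagata
NUAK1, chr12:106065669-106065695, minus strand: tgaaccattgGCTCTGTtcaccagtga
ADCY2, chr5:7829071-7829097, plus strand: actatgggaaGCTCTGTgtgtacctgg
DCN, chr12:91141110-91141136, minus strand: gacttgattcAACTGTCtttgagagga

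The words are also given for the genes that led the comparison and for the lists. Of the 12 genes with the largest difference in favour of 13.6, 5 carried AACTGTC (PIGA, APOLD1, ACSL1, PRPS2 and VMAC), and none of the 12 in favour of 13.8 did, beside 11.0% of all genes searched. GCTCTGT was in 3 of each 12, beside 20.8% of all. Without the carriers of either word, 48 mitosis genes remained, of which 47 were higher with 13.6 and none higher with 13.8 (median 0.958), and 45 S phase genes, of which 38 and 3 were (median 0.528). The matrix list kept 28 members with neither word, of which 3 were higher with 13.6 and 19 higher with 13.8 (median -0.829), and the interferon list 38, of which 5 and 18 were (median -0.302). Other lists moved more when the carriers were left out. The words were picked by the direction of their carriers, so such shifts are partly built in and carry no test. The Hippo list went from 9 higher with each reagent to 3 higher with 13.6 and 7 higher with 13.8 among 17 members (median from 0.009 to -0.474). The median of the unfolded protein response, over the members searched, went from 0.238 to 0.053. That of the RNA interference machinery went from 0.245 to 0.107 and that of the T-box family from 0.208 to -0.024.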

How the data were processed

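RNA from 501mel cells was sequenced in 9 libraries. The submitters' processing notes name hg19 and the tools STAR, HTSeq, cutadapt, FastQC and DESeq2, without versions. The authors deposited raw read counts per gene, which were used for every test, and log2 normalized counts, which matched those counts to within 0.00203 read over 25354 genes and were otherwise not used. Of 25398 entries, 16 repeated names were left out, and 28 names turned into dates hold 0.2% of reads. Whether counting used strand is not given in the sources used here, so overlapping genes may share reads.

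Samples were grouped by their titles. Genes were kept by edgeR's filterByExpr (minimum count 10), scaled by the trimmed mean of M-values (factors 0.9754 to 1.018) and tested with edgeR 4.0.16 (R 4.3.3, limma 3.58.1) by the quasi-likelihood test on all 3 groups, with 6 residual degrees of freedom and Benjamini-Hochberg adjustment. The p-values measure the spread between the labelled biological replicates. Same-numbered libraries of 13.6 and 13.8 deviated together (correlations 0.508, 0.32 and 0.112). Number 2 of 13.6 deviated with number 3 of 13.8 as well (0.361). The numbers are thus a weak hint of pairs, and they were used as a block in alternative fits only. Control libraries did not all follow (-0.213 and -0.488 for number 2), and the block over 9 libraries treats them as paired too. Alternatives were DESeq2 1.42.0, limma-voom, other scalings, filters and thresholds, a replicate block, a 1.5-fold test and leaving out each library. A fit of the 6 knockdown libraries with the block was added after seeing the data. On simulated counts of 14731 genes for 13.6 against 13.8, the test recovered 73.1% of 67 genes changed 1.5-fold. It recovered 83.6% of 67 changed 2-fold and 98.5% of 66 changed 4-fold, and called 16 of 14531 unchanged genes. The simulation changed few genes, as many up as down, and took their spread from the fitted trend over level. In the data 61.1% of genes were called, so these rates need not hold there.

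The comparison, the 46 gene lists, the words and the rule for named genes were chosen with earlier results of these data known. Named were TBX3, the 12 largest differences each way without overlap and at 5 CPM or more, the 8 largest opposed changes each way, up to 4 members per list by adjusted p, any member of lists under 13 tested, and 11 pigment genes. Names of clones, loci and pseudogenes were passed over in the rankings by size, and S100B and CD68 are from the marker lists. Some genes that the rule names are not reported here. The 3′ UTRs (GENCODE 29) and promoters (RefSeq) are of GRCh38 and were matched to the counts by symbol.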

Additional observations from a re-analysis of the deposited data

How the results depend on the processing

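The number of genes called between 13.6 and 13.8, 8995 as reported, lay between 7143 and 10325 under every alternative but one. In edgeR's test against a change of at least 1.5-fold, 2510 genes were called, and the difference in TBX3 of 0.257 on the log2 scale was not (edgeR adjusted p = 1). Leaving out each library in turn gave 8021 to 9603 genes between the reagents, 6304 to 7504 for 13.6 against control and 7164 to 8452 for 13.8 against control. For TBX3 it gave 0.1884 to 0.3039 (edgeR adjusted p from 0.00398 to 0.0412). With the replicate number as a block, 9581 genes were called between the reagents (TBX3, edgeR adjusted p = 0.00232), 8010 for 13.6 against control and 8803 for 13.8 against control, and of the named genes it changed the call of SLC7A11 only. These fits block the controls too, whose number 2 did not follow its namesakes (correlations -0.213 with 13.6 and -0.488 with 13.8). The fit of the 6 knockdown libraries with the block called 10325 genes and, of the named genes, added SLC7A11, NCAM1, TWIST1 and THY1. With library totals as scaling, 45.6% of called genes were higher with 13.6, beside 50.6% as reported. Named genes other than TBX3 numbered 225 (213 with a mean of at least 50 reads, 223 in the fits of the 6 libraries alone). Of those called in the main fit or in the alternative, none changed direction under the 20 alternatives. In the 1.5-fold test, 62 lost their call. DESeq2 gave no adjusted p for 5150 genes. Depth limits what can be said of genes under 1 CPM, such as CDKN1A and ZEB1.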
